A study of Homo sapiens with 4 samples.

Results

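The peroxisome proliferator-activated receptors (PPARs) and a set of genes that handle fatty acids were followed in A549 cells, a human lung adenocarcinoma line, after exposure to embelin, a plant-derived alkylated quinone. The 8 genes were the receptors PPARA, PPARD and PPARG and the target genes ANGPTL4, PLIN2, CPT1A, PDK4 and FABP4. They were chosen by name, from the gene name or the RefSeq transcript that the array gives for each probe, with ADFP read as the older name of PLIN2. They were represented by 14 of the 50238 probes of the array. For 7 of the 8 genes a probe was bright enough to be tested, out of 17649 genes or transcripts tested in all.

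Embelin and control were compared, with 2 samples each. The embelin samples received 15 µM embelin for 4 h and the control samples were labelled with 0 µM embelin, at the same time point. Both were kept in medium with 2% serum from 12 h before the treatment, and each sample was hybridized in a single colour (Cy3) to 1 array. The labels number the samples of a group but do not say whether they came from separate cultures, so the p-values measure the spread between these samples, which may be technical. A549 is 1 tumour cell line, so the values describe that line at 1 dose and 1 time. In such bulk samples, less RNA of a gene per cell and fewer cells that express it cannot be told apart.

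The PPARs are nuclear receptors that bind fatty acids and their derivatives, pair with a retinoid X receptor and sit on DNA at direct repeats of a short half-site. PPARα is best known for fatty acid oxidation in the liver, PPARδ for the same in muscle and many other tissues, and PPARγ for fat storage in adipocytes. Their targets include a secreted inhibitor of lipoprotein lipase (ANGPTL4), the coat protein of lipid droplets (PLIN2), the enzyme that admits fatty acids to the mitochondrial carnitine shuttle (CPT1A), a kinase that holds pyruvate back from oxidation (PDK4) and an intracellular fatty acid carrier (FABP4). ANGPTL4 and PLIN2 are also known to respond to hypoxia and to other stresses.

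ANGPTL4 and PLIN2 were the members called higher by the adjusted p described below, and their promoters are shown for that reason. PPARD was also higher, by 1.27 on the log2 scale, but was not called. Each run is 300 bases of the RefSeq annotation on GRCh38.p14, most of them before the start of the transcript and the last part after it, written 5′ to 3′ on the strand of the gene. Capitals mark the hypoxia response core ACGTG, read on both strands, with its flanking C or G where these complete the palindrome CACGTG. The ANGPTL4 promoter lies at chr19:8363905-8364204 on the plus strand and the PLIN2 promoter at chr9:19127443-19127742 on the minus strand.
ANGPTL4 promoter: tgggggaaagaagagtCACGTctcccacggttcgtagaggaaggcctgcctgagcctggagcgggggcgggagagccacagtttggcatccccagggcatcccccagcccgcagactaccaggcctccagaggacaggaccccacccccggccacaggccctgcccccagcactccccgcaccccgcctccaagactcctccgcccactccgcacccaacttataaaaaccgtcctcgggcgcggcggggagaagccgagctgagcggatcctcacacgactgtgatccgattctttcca
PLIN2 promoter: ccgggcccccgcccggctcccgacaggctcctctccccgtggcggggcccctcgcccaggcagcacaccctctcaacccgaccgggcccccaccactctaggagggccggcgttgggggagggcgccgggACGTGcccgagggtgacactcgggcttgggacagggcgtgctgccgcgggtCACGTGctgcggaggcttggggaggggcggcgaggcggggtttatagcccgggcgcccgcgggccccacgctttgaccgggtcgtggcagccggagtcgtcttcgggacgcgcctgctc

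Promoters were found for 7 of the 8 genes. The half-site AGGTCA, read on both strands, was in 13.8% of 35116 promoters of the same length and in 0 of these 7. Its direct repeat with 1 base between the copies, known as DR1, was in 0.0228% of all promoters and in 0 of the 7. The core ACGTG was in 21.4% of all promoters and in 2 of the 7, those of ANGPTL4 and PLIN2. These are matches of letters within a short window and say nothing of the factors that bind there or elsewhere.

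The probes that carried the results were also read from the array. The PLIN2 probe is shown whole, and the ANGPTL4 probe and the 2 tested PPARA probes, which differed in signal, by their first 30 bases of 60.
ANGPTL4 probe: tgtaggtcccctggggacacaagcaggcgc
PLIN2 probe: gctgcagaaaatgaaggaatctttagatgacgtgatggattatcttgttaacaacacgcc
PPARA probe 1: cagactctccacatgtgctctactagtgag
PPARA probe 2: acggttattgaccccatagactagggtaag

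All values below are normalized signals on the log2 scale, in which the 75th percentile of every array was set to 9.40. A probe was tested where, in the control or the embelin group or both, the scanner software called both arrays well above background, and the brightest tested probe stood for its gene. A gene was called where the adjusted p of the limma fit was under 0.05. The share of probes well above background was 66.7% in control 1 and 66.4% in embelin 2 but 50.3% in control 2 and 51.2% in embelin 1, so each group held 1 array of either kind. On the slide, controls 1 and 2 took positions 4 and 1, and embelin 1 and 2 took positions 2 and 3. Over the genes with a value on all 4 arrays, Pearson's r across genes was 0.973 between the controls, 0.972 between the embelin arrays and 0.926 to 0.968 between the groups. All 5 epithelial markers examined (KRT8, KRT18, KRT19, EPCAM and CDH1) were well above background on every array.

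With embelin, ANGPTL4 was 39.1-fold and PLIN2 17.7-fold higher, while none of the other members was called in either direction. Of the 7 members tested, 2 were called higher, beside 1.25% of all genes tested, and 0 were called lower, beside 0.561% of all genes. The members were chosen with earlier results of these data known, so the counts set beside shares here are no test of the set. Without adjustment, limma gave a p under 0.05 for 3 members that were higher, beside 8.36% of all genes, and 3 that were lower, beside 11.1% of all genes. By the rule of the methods, at least a 2-fold change and p under 0.05 by the methods' t-test without adjustment, 3 members were higher (ANGPTL4, PLIN2 and PPARD), beside 3.05% of all genes, and 2 were lower (PDK4 and PPARA), beside 2.73% of all genes. After Benjamini-Hochberg adjustment the methods' t-test called 0 members and 0 of all genes. In all 7 members the embelin values did not overlap the control values, 3 times higher and 4 times lower, and the groups did not overlap in 51.8% of all genes with a value on all 4 arrays. The median log2 fold change was -0.50 over the 7 members and -0.06 over all genes tested.

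**Figure D1:**
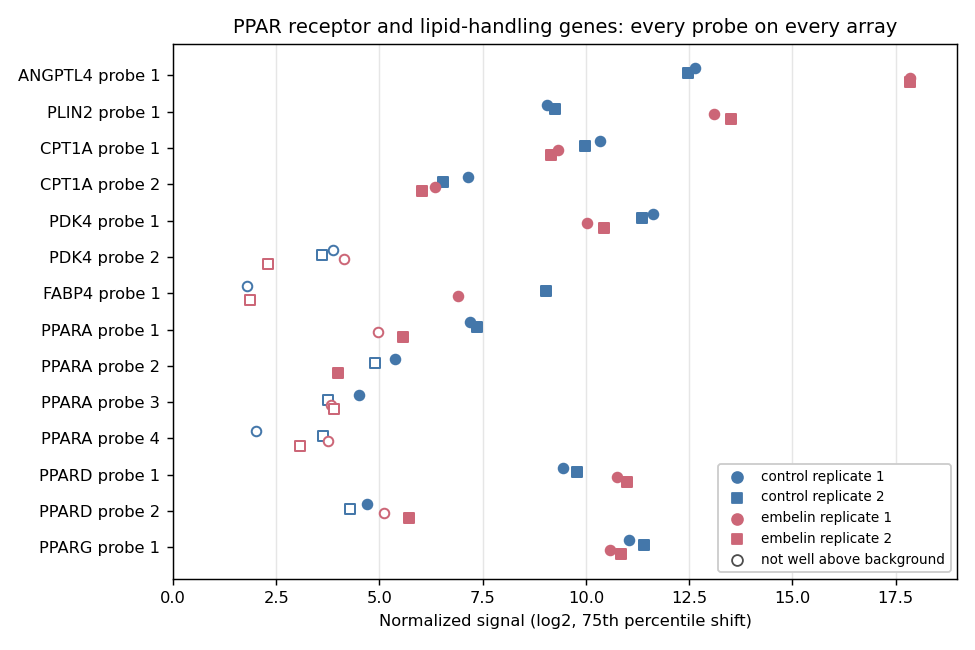
Normalized log2 signal (horizontal axis) of each of the 14 probes of the 8 genes on each array, with controls in blue and embelin in red, circles for replicate 1 and squares for replicate 2, and open symbols where the probe was not well above background. The embelin arrays stand clear to the right of the controls for ANGPTL4 and PLIN2, whereas FABP4 was bright on 1 array of each group, and the outlier spot of PPARA probe 2 on embelin 1 is not drawn.

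ANGPTL4 encodes a secreted protein that inhibits lipoprotein lipase. Its single probe gave 12.66 and 12.47 in controls 1 and 2, and 17.85 and 17.86 in embelin 1 and 2. The embelin arrays differed by less than the controls did and lay far from them, with no overlap. The log2 fold change was 5.29 (SE 0.17, 95% interval 4.83 to 5.75, limma adjusted p = 0.0204), the 9th largest rise of all genes tested. No spot of the array was called saturated by the scanner software. The ANGPTL4 spot ranked 28 by brightness among the spots of embelin 1 and 7 among those of embelin 2. Whether its signal was compressed at that level was not tested. Within the 2 pairs of arrays with a like share of probes above background, the difference was 5.20 and 5.38.

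PLIN2 encodes perilipin 2, which coats lipid droplets in most cell types. Its single probe gave 9.07 and 9.26 in the controls and 13.10 and 13.51 in the embelin arrays. Both embelin arrays lay well above both controls, and they differed from each other by more than the controls did. The log2 fold change was 4.14 (SE 0.22, 95% interval 3.53 to 4.75, limma adjusted p = 0.0204), the 21st largest rise. Within the pairs of arrays with a like background it was 4.45 and 3.84.

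Both calls were lost when any 1 of the 4 arrays was left out, with a limma adjusted p of 0.0557 to 0.172 for ANGPTL4 and 0.0560 to 0.172 for PLIN2, while the log2 fold changes stayed between 5.20 and 5.38 and between 3.93 and 4.35. In these fits no gene of the array was called.

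CPT1A, carnitine palmitoyltransferase 1A, catalyses the first step of the carnitine shuttle. Its brighter probe gave 10.35 and 9.98 in the controls and 9.31 and 9.15 in the embelin arrays. Both embelin values were below both controls, and the controls differed from each other by more than the embelin arrays did. The log2 fold change was -0.93 (SE 0.21, 95% interval -1.51 to -0.36, limma adjusted p = 0.124). The dimmer CPT1A probe gave a log2 fold change of -0.66 (SE 0.29, limma adjusted p = 0.348), with 7.15 and 6.54 in the controls and 6.35 and 6.03 in the embelin arrays. The 2 probes had the same sign, and neither was called.

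PDK4 encodes a pyruvate dehydrogenase kinase, which inactivates the complex that turns pyruvate into acetyl-CoA. Its brighter probe gave 11.63 and 11.36 in the controls and 10.02 and 10.44 in the embelin arrays. The groups did not overlap, and the log2 fold change was -1.26 (SE 0.23, 95% interval -1.90 to -0.63, limma adjusted p = 0.0899). PDK4 was called lower in 2 other settings, with an adjusted p of 0.0478 in limma when only probes above background on all 4 arrays were tested and 0.0248 with the trend and robust options of limma's eBayes. A second PDK4 probe was well above background on no array and was not tested.

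FABP4, the fatty acid carrier of adipocytes and macrophages, could not be tested. Its single probe gave 1.80 in control 1 and 9.03 in control 2, and 6.91 in embelin 1 and 1.86 in embelin 2. It was well above background on control 2 and embelin 1 and on neither of the other arrays, so the arrays split across the groups and not between them. The spot itself had a mean intensity of 467 over a local background of 23 on control 2, and 158 over 79 on embelin 1, against 37.2 over 24 on control 1 and 33.9 over 24 on embelin 2. Neither bright spot was marked as an outlier by the scanner software. The arrays that held them had more spots so marked, 296 on control 2 and 743 on embelin 1. There were 47 on control 1 and 87 on embelin 2. Over the array, 81 of 50238 probes (0.161%) were above background on control 2 and embelin 1 alone, and 17 of these had a gap at least as wide as that of FABP4 (5.06 on the log2 scale, between the lower of the bright and the higher of the dim arrays). The opposite pattern, above background on control 1 and embelin 2 alone, was found for 6093 probes (12.1%), and none of them had such a gap. The lowest signals called well above background were 3.84 and 3.90 on control 1 and embelin 2. They were 5.86 and 5.98 on control 2 and embelin 1. A gap of 5.06 is therefore not a like threshold for the 2 patterns. Why FABP4 was bright on 1 array of each group was not tested.

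PPARA encodes PPARα, and it was not called. Its brightest probe gave 7.19 and 7.36 in the controls and 4.96 and 5.56 in the embelin arrays, where it was well above background on 1 of 2 arrays. Both embelin values were below the controls, with a log2 fold change of -2.01 (SE 0.27, 95% interval -2.74 to -1.28, limma adjusted p = 0.0569), just outside the threshold. This probe was tested only because both controls were well above background. The size, SE and interval rest on embelin signals near background. On embelin 1 the value of 4.96 was under the lowest signal called well above background on that array, 5.98. The second tested PPARA probe gave 5.38 and 4.89 in the controls and 4.00 in embelin 2, a log2 fold change of -1.14 (SE 0.33, limma adjusted p = 0.243). With 1 embelin array left for this probe, its spread came from the controls and from limma's prior, and the lone array was assumed to vary like them.

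On embelin 1 the spot of this second PPARA probe was marked as an outlier and left out. That spot was called well above background, as was embelin 2, and the probe was tested for that reason, though the controls had it above background on 1 of 2 arrays. Its mean intensity was 8312 there, against 83.9, 73.5 and 57.5 on control 1, control 2 and embelin 2. In the deposited table of probe values this spot is retained, its probe becomes the brightest of the gene, and the log2 fold change of PPARA turns to 3.33 (SE 3.21, limma adjusted p = 0.631). With normexp background correction PPARA was called lower, at -1.01 on the log2 scale (limma adjusted p = 0.0478). The 2 remaining PPARA probes lay between 2.01 and 4.49, and were not tested.

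PPARD encodes PPARδ, the most widely expressed of the receptors. Its brighter probe gave 9.44 and 9.77 in the controls and 10.74 and 11.00 in the embelin arrays. Both embelin values were above both controls, with a log2 fold change of 1.27 (SE 0.21, 95% interval 0.68 to 1.85, limma adjusted p = 0.0804). PPARD passed the threshold in 3 other settings, with a limma adjusted p of 0.0483 after normexp background correction, 0.0414 for probes above background on all 4 arrays and 0.0227 with the trend and robust options of eBayes. Its second probe gave 4.70 and 4.30 in the controls and 5.10 and 5.72 in the embelin arrays, and was not tested.

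PPARG encodes PPARγ, the receptor of adipocyte differentiation. Its single probe gave 11.03 and 11.42 in the controls and 10.59 and 10.86 in the embelin arrays. The log2 fold change was -0.50, and its 95% interval ran from -1.12 to 0.12 (SE 0.23, limma adjusted p = 0.333). The values did not overlap, but the interval included 0, and a change of this size was not resolved with 2 arrays in a group.

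**Figure D2:**
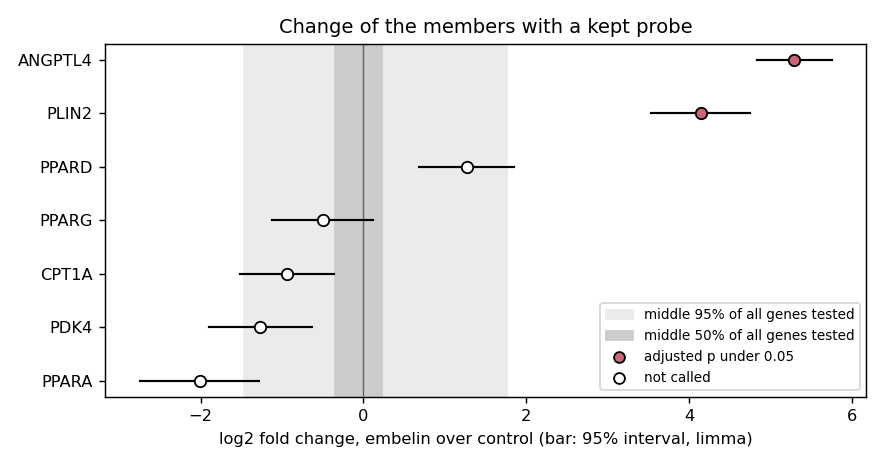
Log2 fold change of embelin over control for the 7 tested members (points, filled where the limma adjusted p was under 0.05), with 95% intervals as bars and the middle 50% and 95% of all genes tested as grey bands. ANGPTL4 at 5.29 and PLIN2 at 4.14 lie far outside the wider band. PPARA at -2.01, with embelin signals near background, lies below that band, and the other 4 members lie within it.

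Signals like those of the called members were found by the smallest Euclidean distance between log2 signals centred on their mean over the 4 arrays. The genes closest to ANGPTL4 were INHBA (distance 0.37), ATF3 (0.43) and HK2 (0.51). INHBA encodes a subunit of activins, ATF3 a stress-induced transcription factor and HK2 a hexokinase of glycolysis, and their log2 fold changes were 5.31, 5.71 and 5.77. The genes closest to PLIN2 were PDGFB (0.31), ARID5A (0.35) and GPR146 (0.40), with log2 fold changes of 3.94, 4.38 and 3.77. All 6 were called higher by limma, with an adjusted p of 0.0204 for 5 of them and 0.0233 for GPR146. They were picked on these same arrays for likeness to called genes, so their calls are no separate result. With normexp background correction all 6 log2 fold changes were smaller. They were 4.02 for INHBA, 5.45 for ATF3 and 4.97 for HK2, and 3.17 for PDGFB, 3.88 for ARID5A and 2.68 for GPR146. INHBA and GPR146 were well above background on 3 of the 4 arrays. The likeness rests on 4 arrays in 2 groups, so it mostly records the size of the difference.

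The wider pathway was read from 79 further genes in 8 lists by role, of which 54 had a tested probe, 24 had only dimmer probes and 1, PLIN4, had none. HILPDA and PDK1 rose and PPARGC1B and LIPE fell, so that 2 were called higher and 2 lower, beside 1.25% and 0.561% of all genes, and 50 were not called. Of the 2 lower, PPARGC1B was tested only because both controls were well above background. The lists too were chosen with earlier results of these data known, so these shares are no test of them. The median log2 fold change of the 54 was -0.08, close to that of all genes tested (-0.06). In 29 of them the groups did not overlap, 8 higher and 21 lower in embelin, beside 51.8% of all genes in either direction. The count of 29 was near that share. No share by direction was taken over all genes, so the split, here or for the members, is not read as a lean. All 4 calls were lost when any 1 array was left out, with a limma adjusted p of 0.0576 to 0.213.

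HILPDA, a small protein of lipid droplets that inhibits the lipase ATGL and is known as a hypoxia-inducible gene, gave 13.54 and 13.80 in the controls and 16.31 and 16.15 in the embelin arrays. The log2 fold change was 2.56 (SE 0.19, limma adjusted p = 0.0260), a 5.90-fold rise. LIPE, the hormone-sensitive lipase, gave 10.69 and 10.51 in the controls and 8.99 and 8.73 in the embelin arrays. It fell by 1.74 on the log2 scale (SE 0.19, limma adjusted p = 0.0459), and the call was lost in 12 of 16 other settings. These were the 2 called genes of the 10 tested for the lipid droplet and lipolysis, and they moved in opposite directions.

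Of the 5 pyruvate dehydrogenase kinases and phosphatases beside PDK4, all tested, 1 was called. PDK1, another kinase of the complex, gave 8.55 and 8.21 in the controls and 11.07 and 11.25 in the embelin arrays, a log2 fold change of 2.78 (SE 0.21, limma adjusted p = 0.0260) or 6.89-fold. A second PDK1 probe gave 3.03 (SE 0.67, limma adjusted p = 0.135). PDK2 had a log2 fold change of -0.82 (SE 0.17, limma adjusted p = 0.109) and was not called, and PDK3, the remaining kinase, had 0.75 (SE 0.19, limma adjusted p = 0.152) and was not called. PDK3 is given to complete the kinases, beyond the rule for named genes.

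Among 8 tested receptor partners and coregulators, PPARGC1B fell. It encodes PGC-1β, a coactivator of mitochondrial genes, and gave 7.20 and 6.98 in the controls and 3.90 and 4.33 with embelin. It was well above background on 1 of the 2 embelin arrays. The log2 fold change was -2.98 (SE 0.23, limma adjusted p = 0.0268). Its size rests on embelin signals near background, and with normexp background correction it was -1.10 (limma adjusted p = 0.0526). The call was lost in 10 of 15 other settings. PPARGC1A, which encodes the related PGC-1α, had a log2 fold change of -0.97 (SE 0.25, limma adjusted p = 0.150). RXRA and RXRB, which encode retinoid X receptors, were tested and not called.

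No gene of the remaining lists was called. Of 15 tested genes of the carnitine shuttle and mitochondrial beta-oxidation, the largest differences were those of CPT2, which completes the shuttle, at -0.80 (SE 0.23) and of CPT1C, the form of CPT1 found in brain, at -0.48 (SE 0.21). Of 5 tested genes of peroxisomal oxidation, the transporter ABCD3 had a log2 fold change of -1.23 (SE 0.46), which was -0.61 without embelin 1 and -1.85 without embelin 2, while its second probe gave -0.10 (SE 0.30), and HSD17B4 had -0.27 (SE 0.18). Of 8 tested genes for the binding and uptake of fatty acids, SLC27A3 had -1.29 (SE 0.18, limma adjusted p = 0.0595) and VLDLR, a receptor for triglyceride-rich lipoproteins, had 1.17 (SE 0.22, limma adjusted p = 0.0966). VLDLR was called higher with the trend and robust options of eBayes (limma adjusted p = 0.0282). SLC27A3 was well above background on 1 of 2 embelin arrays, and its value with normexp background correction was -0.66. Of 3 tested fatty acid-activating enzymes, ACSL1 had -0.41 (SE 0.19) and ACSL3 had -0.30 (SE 0.29). None of the 7 angiopoietin-like genes beside ANGPTL4 had a tested probe, so the rise of ANGPTL4 cannot be set against its family on these arrays.

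**Figure D3:**
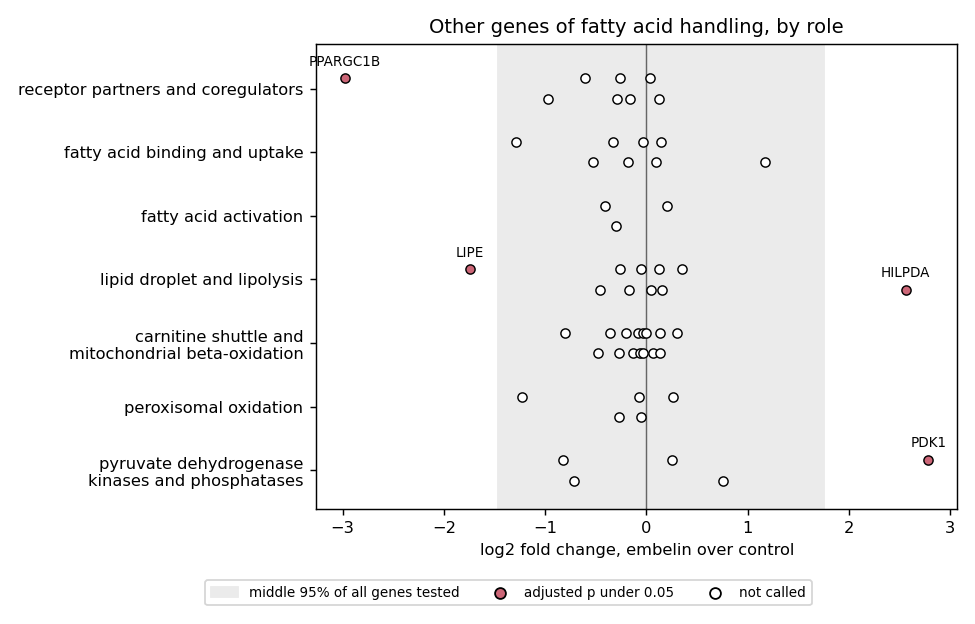
Log2 fold change of embelin over control for the 54 tested genes of the pathway, 1 point a gene, in rows by role, filled where the limma adjusted p was under 0.05, over the middle 95% of all genes tested (grey band). PPARGC1B and LIPE at the left and HILPDA and PDK1 at the right are the called genes and lie outside the band, and the 15 genes of the carnitine shuttle and beta-oxidation lie within it, with CPT2 at -0.80 the farthest from 0.

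Several of these genes also mark fat cells, and 5 adipocyte markers were examined (ADIPOQ, LEP, PLIN1, CIDEC and LIPE). ADIPOQ, CIDEC and LIPE were well above background on all 4 arrays, PLIN1 on 1 and LEP on none. Their summed signal was 11.06 to 11.14 on the log2 scale in the controls and 10.18 to 10.28 in the embelin arrays. LIPE, the brightest of them in the controls, was the 1 marker called, with the brightest tested probe standing for each gene. The brighter ADIPOQ probe and CIDEC had log2 fold changes of 0.11 and 0.35 and were not called. A second ADIPOQ probe gave 3.96 and 3.67 in the controls and 8.49 and 7.09 in the embelin arrays. It was bright enough to be tested, but its fit is not given here. Of the markers of other cell types, 2 of 5 for leukocytes, 0 of 5 for endothelial cells and 1 of 5 for fibroblasts were well above background on all 4 arrays, and LYZ, CDH5, TEK, DCN and PDGFRB on none. The summed fibroblast signal was 6.83 to 8.18 in the controls and 7.86 to 9.44 in the embelin arrays, which overlapped. The higher sum of each group held a probe above background on 1 array only, LUM at 7.44 on control 2 and COL3A1 at 8.86 on embelin 1. COL1A1, the fibroblast marker above background on all arrays, had a log2 fold change of 1.30 (SE 0.17, limma adjusted p = 0.0547). Its dimmer probes gave 5.51 and 5.34, and 5.49 and 5.22, in the controls. With embelin they gave 7.16 and 7.36, and 7.08 and 7.14. The part of the adipocyte and fibroblast marker signals in the other values was not tested.

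**Figure D4:**
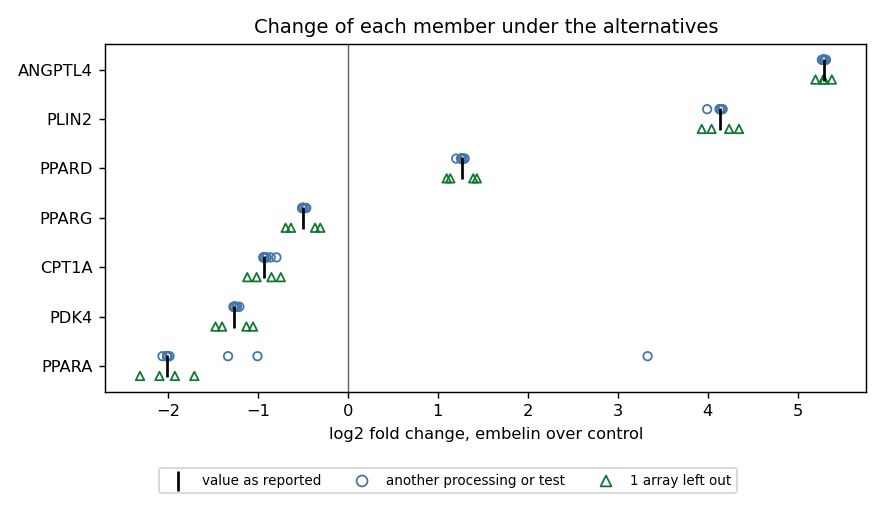
Log2 fold change of the 7 tested members as reported (vertical strokes), under other processing or tests (circles) and with 1 array left out (triangles). Every value of ANGPTL4 lay between 5.20 and 5.38 and every value of PLIN2 between 3.93 and 4.35, and the single value on the other side of 0 is PPARA at 3.33 in the deposited table of probe values.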

How the data were processed

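RNA of 2 control and 2 embelin samples was measured on 4 arrays of 1 Agilent slide. The authors deposited intensities of Feature Extraction 10.7.3.1 (per the file headers), with background subtracted and trends within the array corrected, and with no normalization across arrays. A deposited table of the same intensities, averaged by probe, served as an alternative. Intensities were scaled to equal 75th percentiles over spots that were not controls, given a floor of 1 and log2-transformed. Outlier spots were left out and spots of a probe averaged. The groups were compared with limma 3.58.1 (lmFit, eBayes) under R 4.3.3, with Benjamini-Hochberg adjustment over 17649 genes or transcripts. The fit was tested on simulated data. The number of arrays limits the precision, and the smallest p of an exact permutation test would be 0.333. Named were all members, the called genes of the pathway lists, the 2 with the largest change in each list, and 3 genes most like each called member. The members and lists were chosen with earlier results of these data known. Probe names came from accessions in a RefSeq table of GRCh38.p14 (28595 of 50238 probes), from another probe of the same name (2341) or from the files. Alternatives changed background correction, normalization, source table, dim-probe filter, test, probe summary, array position, block and arrays included. A block for arrays with a like background and a 75th percentile without outlier spots were chosen after seeing the data. No coordinates of probes were used.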

Additional observations from a re-analysis of the deposited data

How the results depend on the processing

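Against 2 members called higher and 0 lower, 0 were called higher without a filter on dim probes, by the methods' t-test, with array position as a covariate, with the replicate block, with a block for arrays with a like background and with any 1 array left out (0 to 0). Limma (or that t-test) still gave 3 members higher with an unadjusted p under 0.05 in each of these settings, beside 3.57% to 9.48% of all genes. 1 member was called lower after normexp correction (PPARA), with probes above background on all 4 arrays (PDK4) and with the trend and robust options (PDK4). Of the other genes of the pathway, 2 higher and 2 lower, 0 and 0 were called in the settings that left 0 members. With the mean over probes 1 was higher and 1 lower, and 1 was lower after normexp correction, quantile normalization, in the deposited table and with probes above background on all 4 arrays. With the trend and robust options 3 were higher, VLDLR among them. Among all genes 320 were called, and from 0 to 1061 in the other settings. PPARA reversed to 3.33 in the deposited table, which retains an outlier spot, and ACSL3 to 0.033 without control 1 (range -0.64 to 0.033 over the arrays left out), the cause of which was not tested. The directions of the other members, of the other pathway genes given by the naming rule and of the 6 genes most like the called members held in every setting in which each was run.

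Same-numbered samples deviated together weakly (r = 0.175 across 17298 genes), and 2 numbers do not establish pairing. With the replicate block, the limma adjusted p was 0.0669 for ANGPTL4 and PLIN2.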
